A study of Mus musculus with 66 samples.

Results

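The Dlk1 to Dio3 domain is an imprinted cluster on mouse chromosome 12, and 6 of its genes are described here across mouse embryonic stem cells that carry a deletion at Praf2 and their wildtype counterparts. The members were taken by symbol on chromosome 12, 6 of 55487 genes in the deposited tables: the noncoding RNAs Meg3, Rian and Mirg, and the protein-coding genes Dlk1, Rtl1 and Dio3. RNA was sequenced from the E14 embryonic stem cell line in 7 libraries: GDel2 (2 libraries) and GDel1 (2 libraries), which share the genotype label Praf2 G4 Deletion, and wildtype (3 libraries). G4 is short for G-quadruplex, a stacked fold that strands rich in guanine can take, and Praf2 lies on the X chromosome, not on chromosome 12. Cells of all groups grew in serum with LIF and with inhibitors of GSK and MEK, and all 7 libraries are labelled as untreated total RNA depleted of ribosomal RNA. The labels do not say whether GDel2 and GDel1 are separate clones, or whether replicates came from separate cultures, so p-values measure only the spread between these libraries, which may be technical.

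In an imprinted domain, genes are transcribed mainly from the chromosome inherited from 1 parent. In this domain a region between Dlk1 and Meg3 is methylated on the paternal chromosome; Meg3, Rian and Mirg are transcribed from the maternal chromosome, and Dlk1, Rtl1 and Dio3 mainly from the paternal chromosome. Meg3 is a long noncoding RNA, Rian carries clustered small nucleolar RNAs, and Mirg carries a large group of microRNAs; they lie in the same orientation and are thought to derive from a long transcript that starts at Meg3. Loss of Meg3 RNA is known to mark mouse pluripotent stem cells in which the maternal copy of the domain has been silenced. Gene counts do not tell the parental copies apart, so "maternal" and "paternal" below name the known imprint of a gene and not a measurement.

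On the mm10 build the members span 828613 bases of chromosome 12. Dlk1 lies at 109452485 to 109463336, Meg3 (ENSMUSG00000021268) at 109540996 to 109571729, Rian (ENSMUSG00000097451) at 109603945 to 109661716, Mirg (ENSMUSG00000097391) at 109734981 to 109749458 and Dio3 at 110279230 to 110281097, in the RefSeq table for GRCm38.p6. Rtl1 lies on the opposite strand at 109564900 to 109604418, over the end of Meg3 and the start of Rian. Since the strand setting of the counting is not given, reads in that overlap could have been split between these genes.

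Meg3, Rian, Mirg and Dlk1 were higher in GDel2 than in wildtype, Dlk1 on few counts and tested only through its GDel2 counts. The windows around the RefSeq start sites of these 4 genes are shown for that reason. Each runs 5′ to 3′ on the plus strand of GRCm38.p6 from 250 bases before to 50 bases after the start, with motif matches in capitals, and RefSeq places Meg3 at chr12:109540746-109541045, Rian at chr12:109603695-109603994, Mirg at chr12:109734731-109735030 and Dlk1 at chr12:109452573-109452872. The Dlk1 window belongs to a start inside the gene span given above, which begins at 109452485; the windows of Meg3, Rian and Mirg match the starts of their spans.
Meg3: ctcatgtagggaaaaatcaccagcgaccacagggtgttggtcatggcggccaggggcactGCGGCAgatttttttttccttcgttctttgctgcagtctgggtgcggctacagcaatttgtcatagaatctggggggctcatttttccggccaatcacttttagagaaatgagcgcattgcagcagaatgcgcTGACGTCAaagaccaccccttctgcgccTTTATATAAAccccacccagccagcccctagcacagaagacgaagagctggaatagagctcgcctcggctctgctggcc
Rian: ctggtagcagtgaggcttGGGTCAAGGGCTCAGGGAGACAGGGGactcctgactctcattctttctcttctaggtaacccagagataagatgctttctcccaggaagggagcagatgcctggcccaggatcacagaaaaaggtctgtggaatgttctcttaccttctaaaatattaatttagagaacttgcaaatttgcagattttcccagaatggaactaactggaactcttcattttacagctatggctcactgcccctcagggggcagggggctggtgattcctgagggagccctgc
Mirg: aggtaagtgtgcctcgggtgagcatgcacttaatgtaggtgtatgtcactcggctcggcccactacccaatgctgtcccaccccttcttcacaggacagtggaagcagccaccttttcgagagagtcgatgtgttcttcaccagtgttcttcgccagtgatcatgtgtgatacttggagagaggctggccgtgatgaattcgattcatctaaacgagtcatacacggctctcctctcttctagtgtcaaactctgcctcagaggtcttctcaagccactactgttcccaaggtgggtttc
Dlk1: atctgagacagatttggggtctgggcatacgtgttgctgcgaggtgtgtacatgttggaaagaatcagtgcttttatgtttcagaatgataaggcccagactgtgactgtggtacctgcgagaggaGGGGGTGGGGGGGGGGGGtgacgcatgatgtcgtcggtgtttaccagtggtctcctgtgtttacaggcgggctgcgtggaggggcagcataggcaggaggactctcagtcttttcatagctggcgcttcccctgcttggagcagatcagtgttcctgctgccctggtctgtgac
The motifs searched on both strands were the cAMP response element TGACGTCA, the ZFP57 core TGCCGC, the CTCF core motif, the TATA box TATAAA, and a G-quadruplex pattern. That pattern was 4 runs of at least 3 G with 1 to 7 bases between runs. Bases between runs could themselves be G, so a long stretch of G also matched, and the Dlk1 match depends on this. The Meg3 window held TGACGTCA at positions -57 to -50 from the start, which 1.79% of 32817 promoter windows of the same length hold. It also held the complement of the ZFP57 core (GCGGCA, at -190 to -185; 11.6% of windows) and a pair of TATA matches on opposite strands that overlap by 2 bases between -29 and -20; 13.6% of windows hold at least 1 TATAAA on either strand, and the share with such a pair was not counted. The Rian window held a G-quadruplex pattern at -232 to -207 and the Dlk1 window held another at -124 to -107; 18.6% of all windows hold this pattern. The Mirg window held none of the 5 motifs, and the Dio3 window (chr12:110278980-110279279) held a TATA match at -31 to -26. RefSeq gives Meg3 a second start (chr12:109545148-109545447), whose window held G-quadruplex patterns at -226 to -190 and -32 to 1. These matches describe letters and not binding or folding.

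Libraries held 12316853 to 18762704 expected counts. Praf2 averaged 13.6 CPM in GDel2, 9.66 CPM in GDel1 and 28.9 CPM in wildtype, where CPM is a normalised read count, scaled for library size by the TMM method. Its log2 fold change was -1.09 in GDel2 (adjusted p = 2.01e-04) and -1.59 in GDel1 (adjusted p = 0.00206) against wildtype. Defining genes of embryonic stem cells were present, with 8 of 8 listed markers detected in every group and Pou5f1 at a mean of 394 CPM in GDel2, 464 CPM in GDel1 and 393 CPM in wildtype. Mitochondrial transcripts took 9.60% of counts in GDel2 replicate 2 and 9.91% in GDel1 replicate 1, against 4.83% to 6.89% in the other libraries, so results are also given without this pair of libraries.

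The noncoding RNAs were the abundant part of the domain. Per length, as TPM, a level scaled for transcript length and library, Rian averaged 447 ± 9.79 in GDel2, 160 ± 24.5 in GDel1 and 213 ± 33.9 in wildtype (SD; n = 2, 2 and 3). Meg3 averaged 56.5 ± 17.6 TPM in GDel2, 21.5 ± 6.52 TPM in GDel1 and 33.8 ± 3.11 TPM in wildtype. Mirg averaged 37.6 ± 4.0 TPM in GDel2, 15.5 ± 0.665 TPM in GDel1 and 18.7 ± 0.650 TPM in wildtype. In wildtype, Rian was the 327th gene of the whole table by TPM, Meg3 the 2157th, Mirg the 3582nd and Dio3 the 12172nd. The order Rian over Meg3 over Mirg held in all 7 libraries for the level in TPM. Wildtype cells therefore carried readily measured Meg3, Rian and Mirg RNA, and the coding members were near the limit of detection.

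Meg3, Rian and Mirg rose by 1.83- to 2.29-fold in GDel2 against wildtype, and none of them passed the threshold in GDel1. Meg3 had 299 and 250 CPM in the GDel2 libraries, 102 and 133 CPM in the GDel1 libraries, and 156, 148 and 145 CPM in wildtype. Both GDel2 libraries lay above all others, and both GDel1 libraries lay below every wildtype library. Its log2 fold change in GDel2 against wildtype was 0.87 ± 0.12 (SE; 1.83-fold higher, edgeR quasi-likelihood test, adjusted p = 0.00102).

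Rian had 1080 and 1290 CPM in the GDel2 libraries, 641 and 534 CPM in the GDel1 libraries, and 544, 497 and 508 CPM in wildtype. The GDel2 libraries stood apart, and GDel1 overlapped wildtype. Rian was 2.29-fold higher in GDel2 than in wildtype (log2 fold change 1.19 ± 0.11, edgeR adjusted p = 1.54e-04).

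Mirg had 91.4 and 97.2 CPM in the GDel2 libraries, 53.5 and 44.1 CPM in the GDel1 libraries, and 43.1, 45.0 and 45.9 CPM in wildtype. Again the GDel2 libraries lay above all others and GDel1 overlapped wildtype. Mirg was 2.11-fold higher in GDel2 (log2 fold change 1.08 ± 0.10, edgeR adjusted p = 1.40e-04).

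**Figure D1:**
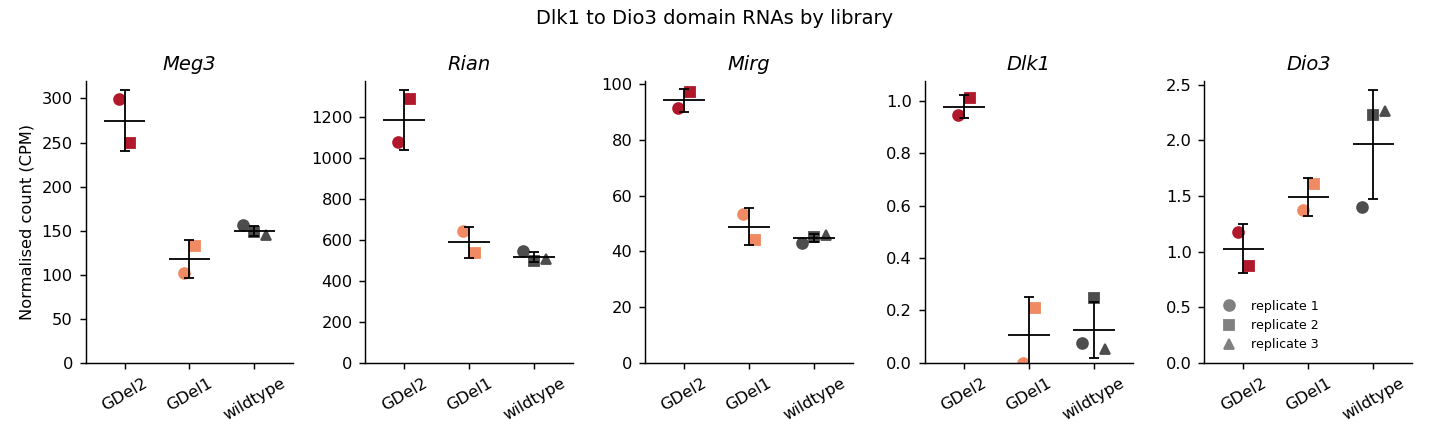
Normalised counts (CPM, linear axes from 0, a separate scale for each gene) of the 5 tested members in GDel2, GDel1 and wildtype; points are libraries, bars the mean and whiskers the SD. The GDel2 libraries lie above all others for Meg3, Rian, Mirg and Dlk1, and below all others for Dio3.

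Of the coding members, Dlk1 rose in GDel2, and Dio3 had lower values there that missed the threshold. Dlk1, a membrane protein related to the ligands of Notch receptors, had 12 and 14 counts in the GDel2 libraries (0.947 and 1.01 CPM), 0 and 4 counts in GDel1 (0 and 0.208 CPM), and 1, 4 and 1 counts in wildtype (0.0736, 0.247 and 0.0525 CPM). The GDel2 libraries lay above all others, at 12 and 14 reads. Its log2 fold change in GDel2 against wildtype was 2.91 ± 0.72 (7.52-fold higher, edgeR adjusted p = 0.0143). Dlk1 entered the test only because its counts in GDel2 passed the filter on low values, so it could hardly have been tested without being higher there. The call was lost without GDel2 replicate 1 (adjusted p = 0.0658), without GDel2 replicate 2 (adjusted p = 0.0950) and without wildtype replicate 3 (adjusted p = 0.0539).

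Dio3 encodes the deiodinase that inactivates thyroid hormone. It had 15 and 12 counts in the GDel2 libraries (1.18 and 0.867 CPM), 17 and 31 in GDel1 (1.37 and 1.61 CPM), and 19, 36 and 43 in wildtype (1.40, 2.23 and 2.26 CPM). GDel2 lay below every wildtype library, and GDel1 overlapped wildtype through wildtype replicate 1. The log2 fold change in GDel2 against wildtype was -0.95 ± 0.32, just outside the threshold (edgeR adjusted p = 0.0514). It passed when wildtype replicate 1 (-1.13, adjusted p = 0.0343) or either GDel1 library (-0.96, adjusted p = 0.0418 each) was left out. It also passed with no filter on low values (-0.98, edgeR adjusted p = 0.0339) and on log2(TPM + 1) (-0.39, limma adjusted p = 0.0449), so in 5 of 17 alternatives. It lay farther from the threshold without GDel2 replicate 2 (-0.74, edgeR adjusted p = 0.264), without GDel2 replicate 1 (-1.19, adjusted p = 0.0866), without wildtype replicate 2 or 3 (adjusted p = 0.138 and 0.145), without the pair of libraries of highest mitochondrial share (-0.74, adjusted p = 0.195) and with DESeq2 (adjusted p = 0.194).

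Rtl1, a coding gene derived from a retrotransposon and needed in the placenta, had 1 count over all 7 libraries, in wildtype replicate 2. It was not tested, and its level could not be compared at this depth.

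All 3 noncoding members were called higher in GDel2 against wildtype, beside 33.1% of all 15421 genes tested (17.4% higher and 15.6% lower). Of the 3 coding members, Dlk1 was called, tested only through its GDel2 counts, so it is not counted against that share; Dio3 was tested and not called, and Rtl1 was not tested. So many genes passed the same threshold that a call alone does not set the members apart. The median log2 fold change of the 3 noncoding members, which are well above the filter in every library, was 1.08, beside a median of 0.01 over all genes. Among single genes, 94.6% of genes had a lower log2 fold change than Rian, 93.6% a lower one than Mirg and 91.0% a lower one than Meg3. For Dlk1 the share was 99.3%, and for Dio3 it was 6.41%.

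In GDel1 against wildtype, 0 of the 5 tested members were called, beside 0.376% of all genes (0.162% higher and 0.214% lower). Of these members 1, Meg3, had an unadjusted p under 0.05. DESeq2 called 993 of 15421 genes there, but none of Meg3, Rian and Mirg, and it gave no adjusted p for Dlk1 and Dio3. The log2 fold change of Meg3 was -0.35 ± 0.13 (edgeR adjusted p = 0.141) and Dio3 gave -0.40 ± 0.30 (adjusted p = 0.441). Rian had 0.19 ± 0.12 (edgeR adjusted p = 0.359) and Mirg 0.12 ± 0.10 (adjusted p = 0.496), values whose sign turned when levels were set by TPM (-0.41 and -0.26 on log2(TPM + 1)), a scale that moves the median of all genes by -0.30. Dlk1 had 0.01 ± 0.89 (edgeR adjusted p = 0.997), an error too wide to show a change of either sign. Without GDel1 replicate 2 the lower Meg3 level passed the threshold (-0.55, adjusted p = 0.0355).

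**Figure D2:**
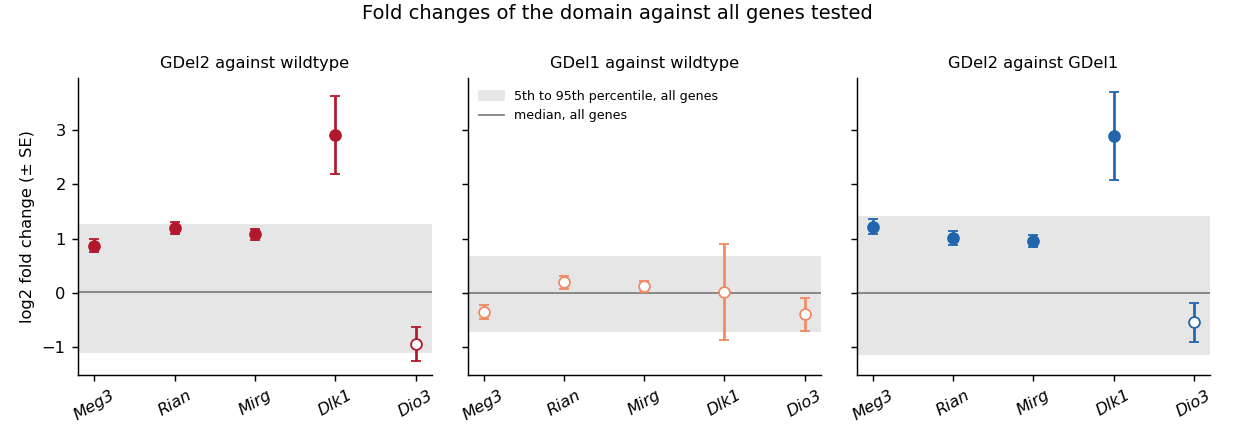
Log2 fold changes (points, ± SE) of the 5 tested members in GDel2 against wildtype, GDel1 against wildtype and GDel2 against GDel1; filled points passed the edgeR threshold, the grey band is the 5th to 95th percentile of all 15421 genes and the line their median. Meg3, Rian, Mirg and Dlk1 are filled in both comparisons with GDel2, and no point is filled for GDel1 against wildtype.

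The libraries that carry the same genotype label thus differed from each other in this domain, and the difference itself passed the test. In GDel2 against GDel1, all 3 noncoding members were called higher, beside 27.7% of all genes (14.8% higher and 12.8% lower). The log2 fold change was 1.22 ± 0.14 for Meg3 (2.33-fold higher, edgeR adjusted p = 4.55e-04), 1.01 ± 0.13 for Rian (adjusted p = 8.10e-04) and 0.95 ± 0.11 for Mirg (adjusted p = 5.60e-04). For Dlk1, tested only through its GDel2 counts, it was 2.90 ± 0.81 (edgeR adjusted p = 0.0284). This call was lost without GDel1 replicate 1, GDel2 replicate 1 or GDel2 replicate 2 (edgeR adjusted p = 0.0585, 0.104 and 0.120), without the pair of libraries of highest mitochondrial share (2.13, adjusted p = 0.121) and with DESeq2 (adjusted p = 0.0867). Dio3 gave -0.55 ± 0.36 (edgeR adjusted p = 0.286). Both comparisons use the GDel2 libraries, so they are not independent of each other.

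Taken as 1 group of 4 libraries against the 3 wildtype libraries, the deletion gave 0 calls among the 5 tested members and 0.0% among all genes by edgeR. In such a fit the spread between GDel2 and GDel1 counts as error, and its part in the 0 calls was not tested. For Rian the log2 fold change was 0.78 (edgeR adjusted p = 0.221) and for Mirg it was 0.68 (adjusted p = 0.239), and 2 of 5 members had an unadjusted p under 0.05. DESeq2 called 970 genes in that comparison. When GDel2 and GDel1 were kept apart in the fit and their mean was tested, Rian (0.69, edgeR adjusted p = 0.00323) and Mirg (0.60, adjusted p = 0.00342) passed. So did many other genes, with 3149 of 15421 called. The mean combines GDel2 (1.19 for Rian and 1.08 for Mirg) with GDel1 (0.19 and 0.12, neither called). It therefore does not show a change common to both.

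Maternal noncoding RNA outweighed paternal coding RNA by far in every library. The summed level of Meg3, Rian and Mirg was 564 and 519 TPM in the GDel2 libraries, 210 and 185 TPM in GDel1, and 309, 241 and 247 TPM in wildtype. GDel2 lay above wildtype and GDel1 below it, without overlap on this scale, on which the median of all genes in GDel1 was also lower. The summed level of Dlk1, Rtl1 and Dio3 was 1.06 and 0.74 TPM in GDel2, 0.48 and 0.73 TPM in GDel1, and 0.86, 1.12 and 1.08 TPM in wildtype, where GDel2 and wildtype overlapped. Dio3 supplied most of the coding sum in wildtype (0.950 ± 0.140 TPM of 1.02 ± 0.140 TPM; SD, n = 3), and in GDel2 Dlk1 (0.410 ± 0.0707 TPM) and Dio3 (0.490 ± 0.156 TPM) were close to each other (SD, n = 2).

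The log2 ratio of noncoding over coding TPM averaged 9.25 ± 0.283 in GDel2, 8.38 ± 0.552 in GDel1 and 8.03 ± 0.404 in wildtype (SD; n = 2, 2 and 3). The GDel2 libraries (9.05 and 9.45) lay above all wildtype libraries (8.49, 7.75 and 7.84), and the GDel1 libraries (8.77 and 7.99) overlapped them. The ratio rests on few coding reads, and its direction turned when Dio3 was left out of the coding sum: the GDel2 libraries (10.26 and 10.49) then lay below all wildtype libraries (12.11, 11.10 and 13.01). As a share of all counts, Meg3, Rian and Mirg together took 0.151% and 0.156% in the GDel2 libraries, 0.0731% and 0.0727% in GDel1, and 0.0755%, 0.0708% and 0.0718% in wildtype, so on this scale GDel1 lay within the range of wildtype.

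**Figure D3:**
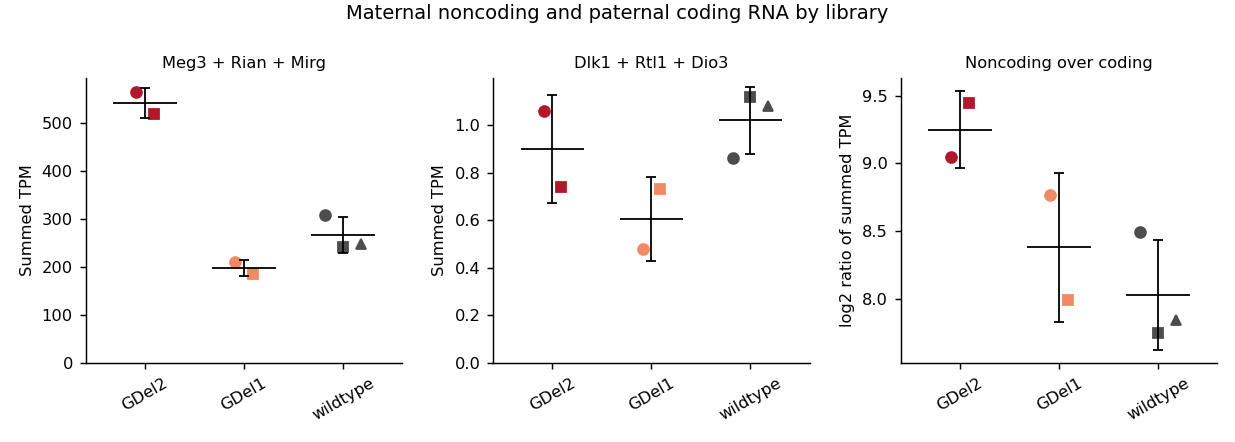
Summed TPM of the maternal noncoding RNAs (left) and of the paternal coding genes (middle), and the log2 ratio of the sums (right, axis not from 0), by library in GDel2, GDel1 and wildtype, with mean and SD. The noncoding sum is 564 and 519 TPM in GDel2 and 185 to 309 TPM elsewhere, while the coding sum does not exceed 1.12 TPM.

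Rian and Mirg kept a steadier proportion to each other than either kept to Meg3. Mirg counts were 0.0755 to 0.0905 of Rian counts over the 7 libraries, and Meg3 counts were 0.160 to 0.298 of them. The profiles of Rian and Mirg over the 7 libraries, each centred on its mean, differed by 0.0882 (root mean square difference in log2 CPM). Of 15420 other genes, Mirg was the 5th nearest to Rian, and Rian was the 23rd nearest to Mirg. Meg3 differed from Rian by 0.318 and from Mirg by 0.286 on this measure, and Rian was the 1175th nearest gene to Meg3.

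The ratio of Meg3 to Rian in TPM was 0.152 and 0.1 in the GDel2 libraries, 0.0951 and 0.183 in GDel1, and 0.148, 0.164 and 0.166 in wildtype. The lowest values were those of GDel1 replicate 1 and GDel2 replicate 2, which are also the libraries of highest mitochondrial share (9.91% and 9.60%); the part of that share in the ratio was not tested. Without this pair of libraries the log2 fold changes in GDel2 against wildtype were 1.00 for Meg3, 1.06 for Rian and 1.03 for Mirg (edgeR adjusted p = 9.14e-08, 7.95e-08 and 4.19e-07), so all 3 calls held. The transcript-weighted length that the authors' tool gave Meg3 ranged from 2646 bases in GDel1 replicate 2 to 3342 bases in GDel2 replicate 2, which enters its TPM but not its CPM. Meg3 in GDel2 against wildtype did not pass on log2(TPM + 1) (0.70, limma adjusted p = 0.0550), whereas Rian (1.08, adjusted p = 0.00272) and Mirg (0.96, adjusted p = 0.00141) did.

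**Figure D4:**
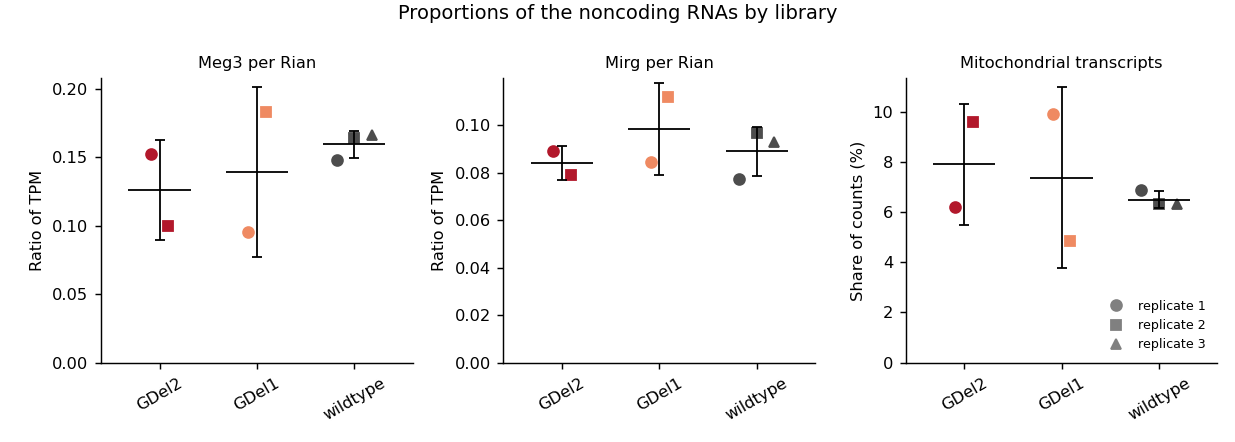
Ratio of Meg3 to Rian TPM (left), ratio of Mirg to Rian TPM (middle) and mitochondrial share of counts in percent (right), by library in GDel2, GDel1 and wildtype, with mean and SD. The lowest Meg3 to Rian ratios, 0.1 and 0.0951, belong to the libraries with mitochondrial shares of 9.60% and 9.91%.

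The 3 genes whose profile over the 7 libraries was nearest to each member, among genes of at least 1 CPM, lay on other chromosomes, apart from AC115117.1, whose chromosome is not given. For Rian they were Gjb5 on chromosome 4 (root mean square difference 0.0635), Mitf (0.0657) and Kbtbd8 (0.0748) on chromosome 6. For Mirg they were Upp1 on chromosome 11 (0.0506), Psat1 on chromosome 19 (0.0588) and Hibadh on chromosome 6 (0.0648). For Meg3 they were Arl4d on chromosome 11 (0.0636), Zfp827 on chromosome 8 (0.0667) and Itga5 on chromosome 15 (0.0735). For Dlk1, with its low counts, the nearest genes were Gfod1 on chromosome 13 (0.287), Ptprd on chromosome 4 (0.301) and Syndig1 on chromosome 2 (0.304). For Dio3 they were Trpv4 on chromosome 5 (0.122), AC115117.1 (0.124), and Phyhip on chromosome 14 (0.124).

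The domain also holds many small RNA genes. RefSeq places 61 microRNA and 19 small nucleolar RNA genes between Dlk1 and Dio3, and 114 mature microRNAs with 104 distinct seeds (bases 2 to 8, which pair with target RNAs), 19 of them inside Mirg and 6 inside Rian. Of 10 seeds shared by 2 microRNAs, 3 involve a microRNA that RefSeq places inside Mirg or Rian, the RNAs that rose in GDel2, and their sequences from RefSeq (GRCm38.p6) are shown with the seed in capitals.
miR-453 (inside Mirg): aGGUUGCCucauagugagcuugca
miR-496a-5p (inside Mirg): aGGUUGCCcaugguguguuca
miR-410-5p (inside Mirg): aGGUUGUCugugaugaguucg
miR-494-5p (between Rian and Mirg): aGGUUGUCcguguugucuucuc
miR-370-5p (inside Rian): cAGGUCACgucucugcaguu
miR-1193-3p (between Rian and Mirg): uAGGUCACccguuuuacuauc
Mature microRNAs were not measured, since the counts are of gene models in total RNA. Of 61 microRNA genes inside the domain in the deposited tables, 2 had any count: Mir433 had 4 counts and Mir1197 had 3, all in deletion libraries. None of 13 small nucleolar RNA genes there had a count. Besides the members, 84 genes of the tables lie in the domain, of which 79 had 0 counts and 3 had at least 10. These were Gm34081 between Dlk1 and Meg3, Dio3os beside Dio3, and Gm3379, and none passed the filter on low values. Gm34081 had 4 and 9 counts in the GDel2 libraries, 1 and 4 in GDel1, and 0, 4 and 3 in wildtype.

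On the Dlk1 side of the domain 0 of 6 tested neighbours were higher and 2 lower in GDel2 against wildtype, and on the Dio3 side 2 of 15 were higher and 1 lower, beside 33.1% of all genes called. Within 1 Mb of it 21 neighbours were tested, with a median log2 fold change of -0.22 in GDel2 against wildtype, beside 0.01 over all genes. Of these, Ankrd9 (1.16, edgeR adjusted p = 0.00187) and Cinp (0.76, adjusted p = 8.20e-04) rose, and Eml1 (-1.64, adjusted p = 0.00267), Slc25a47 (-0.98, adjusted p = 0.00988) and Mok (-0.66, adjusted p = 0.00651) fell. Beside 14.8% of all genes higher and 12.8% lower in GDel2 against GDel1, 2 neighbours were higher (Ankrd9 and Cinp again) and 5 lower. Slc25a47 was not among these (-0.54, edgeR adjusted p = 0.133); they were Eml1, Mok, B930059L03Rik (-1.21, edgeR adjusted p = 0.0371), Ppp2r5c (-0.41, adjusted p = 0.0252) and Yy1 (-0.40, adjusted p = 0.0177), the last a zinc finger protein that binds several imprinted loci. The nearest tested neighbours were Wdr25 before Dlk1 (0.22, edgeR adjusted p = 0.270) and the pseudogene Gm6988 after Dio3 (0.51, adjusted p = 0.816). No neighbour was called in GDel1 against wildtype by edgeR, beside 0.376% of all genes, and 2 had an unadjusted p under 0.05. Across chromosome 12, 75 of 514 tested genes were higher and 84 lower in GDel2, with a median of -0.01.

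**Figure D5:**
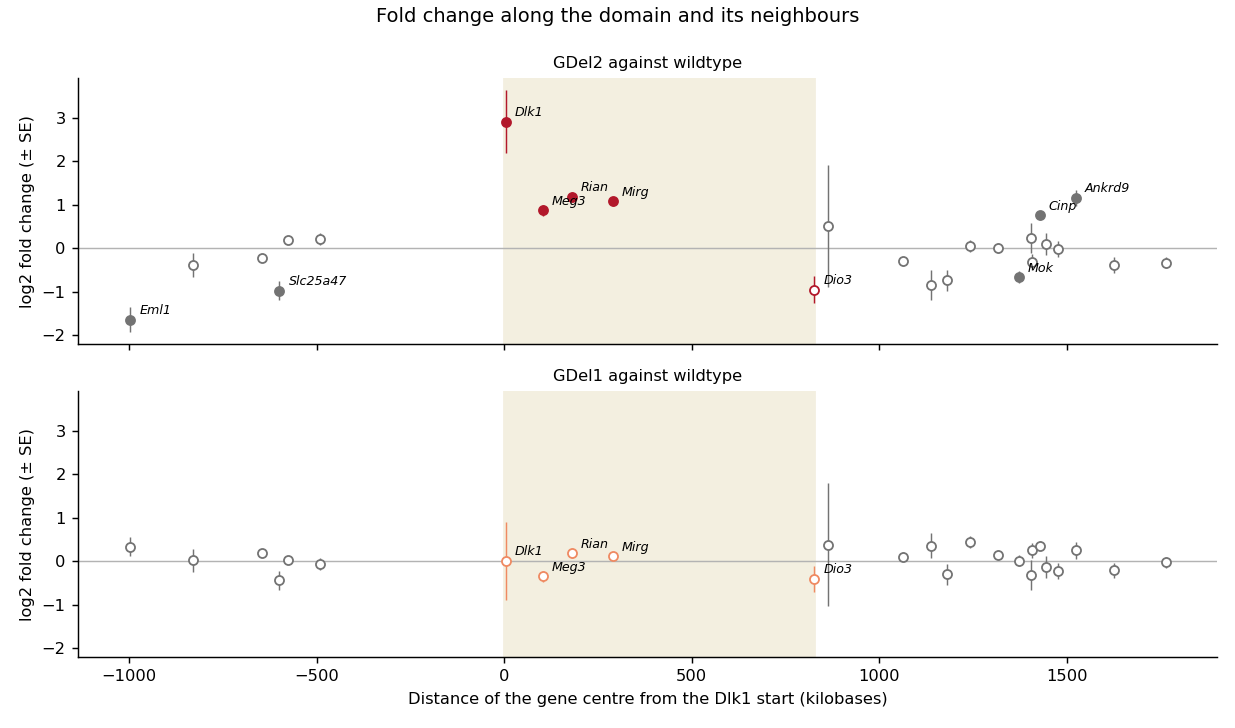
Log2 fold change (± SE) against the distance of the gene centre from the Dlk1 start in kilobases, for GDel2 against wildtype (top) and GDel1 against wildtype (bottom); coloured points are members, grey points neighbours within 1 Mb, filled points passed the edgeR threshold, and the shaded span is the domain. In GDel2, Meg3, Rian and Mirg lie at 0.87 to 1.19 and the neighbours between -1.64 and 1.16.

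Among factors known to maintain or set imprints, 19 listed and all tested, 4 were higher and 5 lower in GDel2 against wildtype, beside 17.4% of all genes higher and 15.6% lower. Their median was -0.17. In GDel1 against wildtype edgeR called 0 of them, beside 0.376% of all genes, and 6 had an unadjusted p under 0.05. The de novo DNA methyltransferase Dnmt3a rose (60.6 CPM in GDel2 and 32.3 CPM in wildtype; log2 fold change 0.91, edgeR adjusted p = 1.94e-04), and its relative Dnmt3b fell (41.7 CPM in GDel2 and 88.0 CPM in wildtype; -1.08, adjusted p = 8.38e-05). Their cofactor Dnmt3l fell (-0.58, edgeR adjusted p = 0.00152), as did the maintenance methyltransferase Dnmt1 (-0.50, adjusted p = 0.0228). Ezh2 (0.78, edgeR adjusted p = 3.55e-04) and Suz12 (-0.83, adjusted p = 2.46e-04), both of Polycomb repressive complex 2, moved in opposite directions. Tet2, which oxidises methylcytosine, rose (0.52, edgeR adjusted p = 0.00209), and so did the insulator protein Ctcf (0.28, adjusted p = 0.0498). Trim28, a corepressor that binds the imprint reader Zfp57, fell (-0.39, edgeR adjusted p = 0.0376), and Zfp57 itself showed -0.08 (adjusted p = 0.597).

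Other imprinted loci listed for methylation on the paternal chromosome gave 3 tested genes of 4 listed. H19, a maternal noncoding RNA, had 3.16 and 2.89 CPM in GDel2, 0 CPM in both GDel1 libraries, and 0.147, 0 and 0.158 CPM in wildtype, and passed in GDel2 against wildtype (edgeR adjusted p = 5.54e-04). Its paternally expressed neighbour Igf2 fell (0.904 CPM in GDel2 and 3.74 CPM in wildtype; -2.04, edgeR adjusted p = 8.30e-04). Zdbf2, also paternally expressed, showed 0.26 (edgeR adjusted p = 0.288). H19 entered the test through its GDel2 libraries, as Dlk1 did.

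Genes of the pathways in which the coding members act are given beside the 33.1% of all genes called in GDel2 and the 0.376% called in GDel1. Of 12 tested Notch pathway genes of 16 listed, 1 rose and 1 fell in GDel2 against wildtype: the ligand Jag2 (1.13, edgeR adjusted p = 0.00800) and the receptor Notch3 (-1.33, adjusted p = 0.0168). For thyroid hormone, the receptor Thra (0.09, edgeR adjusted p = 0.744) and the transporter Slc16a10 (0.09, adjusted p = 0.876) were the 2 tested genes of 7 listed. Of 5 tested relatives of Rtl1 derived from retrotransposons, Peg10, itself imprinted, fell in GDel1 (63.5 CPM in GDel1 and 142 CPM in wildtype; -1.17, edgeR adjusted p = 0.0227), and 0 were called in GDel2, with 0 at an unadjusted p under 0.05.

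Some markers of other cell types were higher in GDel2 against wildtype and others were lower, beside 17.4% of all genes called higher and 15.6% called lower. Of the 6 neural markers, 3 were tested and 2 rose, Tubb3 (1.49, edgeR adjusted p = 1.22e-05) and Sox1 (1.26, adjusted p = 0.00282), while Map2 had -0.34 (adjusted p = 0.235); the list summed to 41.7 to 42.5 TPM in GDel2, 14.3 to 16.0 TPM in GDel1 and 15.3 to 20.0 TPM in wildtype, with Neurog2 at 0. The 5 mesendoderm markers summed to 3.68 to 4.18 TPM in GDel2, 0.89 to 1.14 TPM in GDel1 and 1.22 to 1.32 TPM in wildtype. The 2 tested, Eomes (1.94, edgeR adjusted p = 4.81e-05) and Mixl1 (1.41, adjusted p = 0.0166), were higher. T (0.306 CPM in GDel2 and 0.272 CPM in wildtype) and Gsc (0.0361 and 0.0977 CPM) were too low to test, and Mesp1 was at 0. The 8 fibroblast markers, which would mark feeder cells, summed to 2.29 to 2.83 TPM in GDel2, 0.64 to 0.67 TPM in GDel1 and 1.17 to 1.67 TPM in wildtype, with Col3a1, Dcn and Postn at 0 and Thy1 (1.42, edgeR adjusted p = 0.0105) called of 3 tested; the others, Col1a1 (-0.40, adjusted p = 0.621) and Pdgfrb (-0.14, adjusted p = 0.581), had lower values. The 6 primitive endoderm markers summed to 0.80 to 1.60 TPM in GDel2, 0.37 to 0.47 TPM in GDel1 and 0.38 to 0.81 TPM in wildtype, with Gata4 (1.39, edgeR adjusted p = 0.0201) called of 2 tested and Pdgfra at 0.11 (adjusted p = 0.849). The 5 trophoblast markers summed to 3.02 to 4.90 TPM in GDel2, 4.26 to 6.03 TPM in GDel1 and 5.66 to 7.28 TPM in wildtype, and 3 of 3 tested fell in GDel2: Gata3 (-2.53, edgeR adjusted p = 0.00268), Cdx2 (-2.10, adjusted p = 0.00403) and Tfap2c (-0.51, adjusted p = 0.0499). Of 8 stem cell markers, Zfp42 (1.15, edgeR adjusted p = 5.81e-05) and Nanog (0.40, adjusted p = 0.00956) rose, and Tfcp2l1 (-0.81, adjusted p = 0.00114), Sox2 (-0.40, adjusted p = 0.0120) and Esrrb (-0.36, adjusted p = 0.0400) fell. The part of these markers in the change of Meg3, Rian, Mirg and Dlk1 was not tested; in bulk RNA, fewer cells of a type and less RNA per cell cannot be told apart.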

How the data were processed

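Total RNA from 7 libraries was analysed; the other 59 of 66 samples are not analysed here. The authors deposited RSEM gene results: expected counts (estimated per gene, not scaled for depth) and TPM, which the authors scaled for effective length to an equal total in each library. FPKM values, also deposited, were not used, and the deposited length columns, in bases, were used only for Meg3, Rian and Mirg. The submitters' processing notes name mm10 and, with no version, HiC-Pro, deepTools, Bowtie2, RSEM and STAR; the annotation release and strand setting are not given in the sources. Of 55487 identifiers, 55141 had a symbol, and 38559 had a position in RefSeq for GRCm38.p6.

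Expected counts were rounded, filtered with filterByExpr (3 groups, minimum count 10, minimum total 15; 15421 genes, 99.9% of counts) and tested in R 4.3.3 with edgeR 4.0.16 (TMM, robust quasi-likelihood F test, 2-sided, Benjamini-Hochberg over 15421 genes, adjusted p under 0.05). The comparisons among GDel2, GDel1 and wildtype came from a single model of 3 groups; the 4 deletion libraries against wildtype had a fit of 2 groups. Alternatives used DESeq2 1.42.0, limma 3.58.1 on log2(TPM + 1) and log2(TPM + 0.1), other filters, a replicate block and libraries left out; fold changes on log2(TPM + 1) understate the change of low genes. Fits were tested on simulated data. Named genes were the 6 members, Praf2, other domain genes with at least 10 counts, up to 8 called neighbours, up to 4 called genes of each list by size of change (else the 2 of highest CPM), and the 3 nearest profiles to each member; Dnmt3l, Dnmt1, Tet2, Ctcf, Trim28, Zfp57, Zdbf2, Map2, Col1a1, Pdgfrb, Pdgfra, Pou5f1, Esrrb, Wdr25, Gm6988 and the microRNAs were named after their values were seen. Members and lists were chosen with earlier results of these data known.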

Additional observations from a re-analysis of the deposited data

Results flagged for a closer look

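For Meg3, Rian and Mirg the change against wildtype differed between GDel2 and GDel1, by the edgeR test of the difference itself. The same test called 27.7% of all 15421 genes (14.8% higher and 12.8% lower), so a call there is not particular to the domain. GDel2 exceeded GDel1 by 1.22 for Meg3, 1.01 for Rian and 0.95 for Mirg (log2 fold change), although both carry the same genotype label. Dlk1 also passed this test (2.90), but it was tested only because its GDel2 counts passed the filter on low values, and the call was lost under 6 of 16 alternatives. For all 4 genes both GDel2 libraries lay above both GDel1 libraries. Among the 4 deletion libraries, no single library of a tested member stood apart from the other 3 by Dixon's criterion. That criterion pools GDel2 and GDel1, and for these 4 genes the gap between the groups lies inside the range. It could therefore hardly flag a library there, and it does not show that none is unusual.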

How the results depend on the processing

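Rian and Mirg in GDel2 against wildtype, and Meg3, Rian and Mirg in GDel2 against GDel1, kept direction and call under all 17 alternatives each; over all members, 301 of 337 alternative values kept both. Dlk1 and Dio3 rest on 0 to 43 counts a library, which limits their precision; the cause of the changes below was not tested.

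In GDel1 against wildtype, genes called numbered 993 with DESeq2, 2357 with no filter, 34 with a stricter filter, 3250, 3531 and 8 with limma (log2(TPM + 1), log2(TPM + 0.1), and log2(TPM + 1) with no filter), 4262 without the 2 libraries of highest mitochondrial share, and 4 to 2034 with a library left out. Members called there numbered 1 with no filter (Meg3, -0.33, adjusted p = 0.0436) and 0 to 1 with a library left out. In GDel2 against wildtype, genes called numbered 2604, 2492 and 1361 with limma in the same order and 2643 to 6578 with a library left out. In GDel2 against GDel1 they numbered 2048 with limma and no filter and 2602 to 5617 with a library left out. For the deletion as 1 group they numbered 970 with DESeq2, 1 with no filter, 2 with limma on log2(TPM + 1) with and without the filter, and 3149 for the mean of GDel2 and GDel1 from 3 groups, with 2 members called.

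Against wildtype, GDel1 turned sign with limma in the same order for Rian (-0.41, -0.41 and -0.41), Mirg (-0.26, -0.27 and -0.26) and Dlk1 (-0.01, -0.15 and -0.01). With a library left out, Mirg ranged from -0.02 (without GDel1 replicate 1) to 0.26, and Dlk1 from -3.95 (without GDel1 replicate 2) to 0.93, with -0.19 without wildtype replicate 1 and -0.41 without wildtype replicate 3.

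Replicate numbers gave no sign of pairing: deviations of same-numbered GDel1 and GDel2 libraries had r = -0.208, and wildtype pairs -0.111 to 0.104. With 2 libraries in each deletion group the deviations mirror each other, so r between GDel1 and GDel2 is a single value. It cannot exclude a batch shared by replicate number. With a replicate block, genes called numbered 1 in GDel1, 2296 in GDel2 and 2235 in GDel2 against GDel1; Dlk1 had 2.57 in GDel2 (adjusted p = 0.0836), 3.03 in GDel2 against GDel1 (adjusted p = 0.0630) and -0.46 in GDel1. A crossed pairing, chosen after seeing the data, called 6150 genes in GDel2 against GDel1.

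The log2 ratio of noncoding over coding RNA was 9.59 in GDel2 and 8.44 in wildtype from counts; 6.71 in GDel2, 5.95 in GDel1 and 5.69 in wildtype without Rian; and 10.38 in GDel2 and 12.07 in wildtype without Dio3, where GDel2 was the lower and the direction turned. Without Dio3 no GDel1 mean could be had, since GDel1 replicate 1 had no reads for Dlk1 or Rtl1.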
